A study of Mus musculus with 48 samples.

Results

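RNA of mouse tumors with forced expression of the transcription factor Gfi1 (Gfi1 OE) was compared with RNA of control tumors of the same line, 19251. The libraries were chosen by their titles. Of 48 libraries in the series, 14 carry these titles, 6 for the controls and 8 for Gfi1 OE. Gfi1 OE replicate 5 was left out for its read quality, so 13 libraries were fitted, and it is shown beside them as a check.

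The line models Group 3 medulloblastoma, a cerebellar tumor of childhood that often carries excess Myc. All 14 libraries share the labelled genotype p53-/-;p18-/- (loss of Trp53 and Cdkn2c), and the labels call the baseline tumor MYC amplified. Per the protocol, tumorsphere cells received retroviral vectors, were sorted for red and green fluorescence, expanded in culture and placed with Matrigel in the cerebral cortex of CD-1 nu/nu mice, which lack mature T cells. The control label gives no agent beyond "control", the animals' ages are not given, and the protocol also mentions RNA from cultured cells. Nothing in the labels ties a replicate to an animal of its own, so p-values measure the spread between these libraries only, which may be technical. Both arms come from 1 line, and the comparison describes that line.

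Gfi1 is a zinc finger protein that binds DNA and silences genes by recruiting the histone demethylase Kdm1a with the Rcor proteins, and histone deacetylases. It is best known in blood formation, where it holds back genes such as Meis1, Id2 and Egr1 and restrains its own gene and that of its relative Gfi1b. In human medulloblastoma, GFI1 and GFI1B are known as oncogenes that are switched on when rearrangements place them beside strong enhancers.

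Counts on genes ranged from 14626700 in control replicate 6 to 94733334 in Gfi1 OE replicate 1 over the 13 fitted libraries. Gfi1 OE replicate 5 held 2687641 counts, with 71.6% of its reads unaligned and 23.5% of its counts on the 2 predicted genes Gm16869 and Gm10800. Across tested genes, pairs of Gfi1 OE libraries were correlated at 0.950 to 0.992 (median 0.971, 21 pairs) and pairs of controls at 0.909 to 0.956 (median 0.942, 15 pairs). Pairs of 1 library of each group lay at 0.882 to 0.932. The controls were thus less alike among themselves than the Gfi1 OE libraries were.

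Gfi1 RNA was checked first. It measured 109, 179 and 276 CPM (counts scaled to library size by the trimmed mean of M-values; lowest, median and highest of 7) with Gfi1 OE, against 0, 0.110 and 0.250 CPM (lowest, median and highest of 6) in the controls. Every Gfi1 OE library was far above every control, and replicate 5, outside the fit, held 797 CPM. The log2 change was 10.62 (SE 0.41, adjusted p 7.895e-09, edgeR). Gfi1b, which was too low to be tested, had 68 counts in the 7 Gfi1 OE libraries and 3 in the 6 controls, a depth-scaled ratio of counts of 15.9 with a 95% counting interval of 5.22 to 79.1.

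Of 16938 genes tested, 5738 (33.9%) were called at an adjusted p under 0.05. Of these, 2592 (15.3% of those tested) were higher with Gfi1 OE and 3146 (18.6%) were lower. Among the called genes, 1126 rose and 1395 fell by over 2-fold, and 584 rose and 571 fell by over 4-fold. The median log2 change of all tested genes was -0.04. In 2182 tested genes (12.9%) the libraries of the groups did not overlap, with Gfi1 OE above in 6.9% and below in 5.98%.

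**Figure D1:**
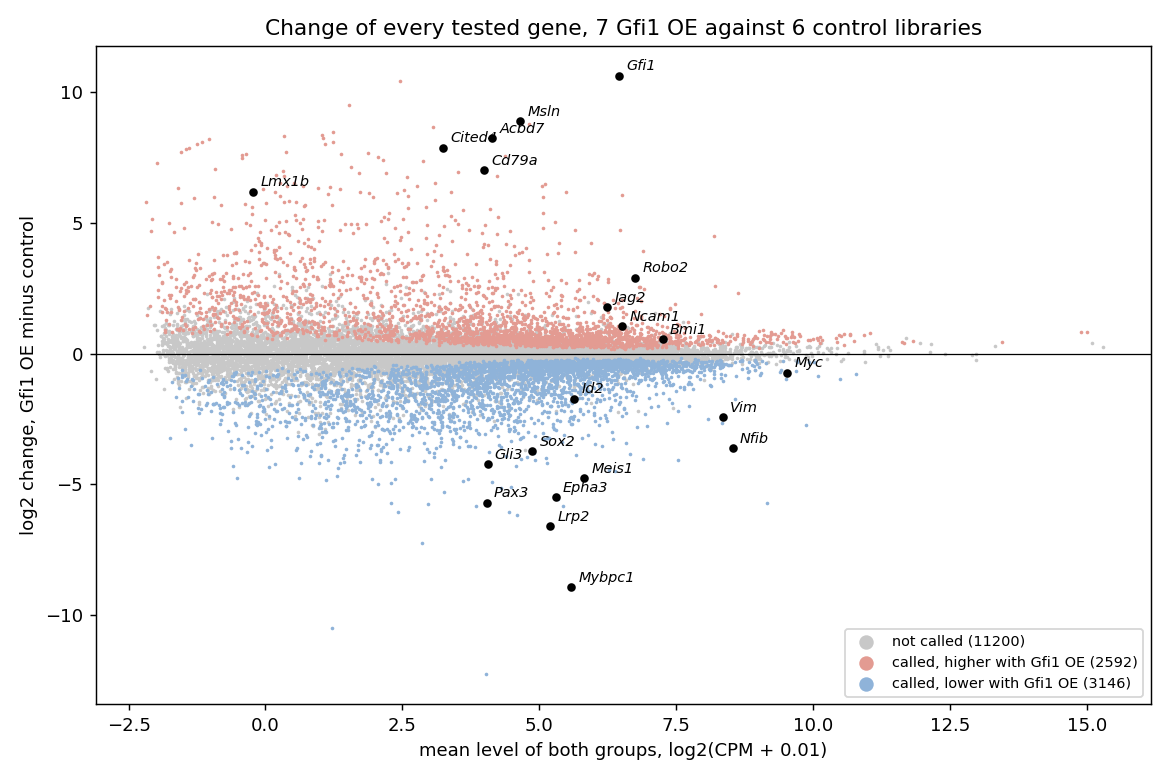
Log2 change with Gfi1 OE (7 libraries) against control (6 libraries) on the vertical axis, and the mean level of both groups, log2(CPM + 0.01), on the horizontal axis, for 16938 tested genes, 1 point each; colours mark 2592 genes called higher, 3146 called lower and 11200 not called. Gfi1 lies highest at 10.62, with Msln, Acbd7, Cited4 and Cd79a above 7, while Mybpc1 and Lrp2 lie below -6.

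The largest rises were of genes with almost no reads in the controls, and several encode proteins of epithelial surfaces and junctions. Msln, mesothelin, a surface protein of mesothelium, measured 27.9, 50.5 and 78.9 CPM (lowest, median, highest) with Gfi1 OE and 0.0516, 0.0798 and 0.312 CPM in the controls. The log2 change was 8.89 (SE 0.41, adjusted p 2.385e-08). Pof1b, an actin-binding protein of epithelial junctions, rose from a median of 0.104 to 59.6 CPM (log2 8.79, SE 0.40). Cldn4, a claudin of tight junctions, measured 5.40 to 16.0 CPM with Gfi1 OE and had at most 0.0364 CPM in a control, a depth-scaled ratio of counts of 2480 (95% interval 445 to 98000, which covers counting error only). The keratin gene Krt23 reached 2.63 to 9.18 CPM against at most 0.0290 CPM, a ratio of 1236 (222 to 48850). These genes were near 0 in all 6 controls and were read in all 7 Gfi1 OE libraries.

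Other leading rises belonged to hormone signalling, blood and lipid binding. Crh, the hormone that drives the stress axis, had a ratio of counts of 481 (95% counting interval 133 to 3976), and Calcr, the calcitonin receptor, one of 652 (117 to 25800). Acbd7, which binds acyl-CoA, rose from a median of 0.105 to 35.8 CPM (log2 8.24, SE 0.42, adjusted p 7.024e-08). Cited4, a partner of the coactivators Cbp and p300, rose from 0.0930 to 19.1 CPM (log2 7.87, SE 0.55, adjusted p 1.138e-06). Epb4.2, a protein of the red cell membrane skeleton, had a ratio of 416 (142 to 2018), Igll1, a part of the pre-B cell receptor, one of 482 (133 to 3985), and Lcn13, a lipocalin, one of 317 (108 to 1539). Igll1 and Lcn13 have close relatives with which reads could be shared, so their values are uncertain.

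The largest falls included developmental regulators of hindbrain and neural tube. Mybpc1, a myosin-binding protein, measured 20.4, 74.2 and 201 CPM in the controls and 0, 0.0972 and 0.755 CPM with Gfi1 OE (log2 -8.94, SE 0.77, adjusted p 4.860e-06). En1, a homeobox factor that patterns the midbrain and cerebellum, fell from a median of 9.84 to 0.195 CPM (log2 -4.96, SE 0.67, adjusted p 1.360e-04). Pax3, a factor of the dorsal neural tube, measured 3.23, 26.8 and 76.6 CPM in the controls and 0.195, 0.555 and 1.05 CPM with Gfi1 OE (log2 -5.71, SE 0.82, adjusted p 2.263e-04). All Gfi1 OE libraries lay below all controls for these genes, as their selection required, and the controls themselves spread widely. Control replicates 2, 3 and 6 held 3.23, 4.32 and 6.93 CPM of Pax3 and the other 3 held 46.7 to 76.6.

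Crabp1, which binds retinoic acid, had 1.62, 7.38 and 159 CPM in the controls and 1 Gfi1 OE library with a count, a ratio of 14990 (95% counting interval 2689 to 591900). Epha3, a receptor for ephrins, fell from a median of 76.1 to 1.45 CPM (log2 -5.50, SE 0.62, adjusted p 4.116e-05), and Lrp2, the endocytic receptor megalin, from 10.4 to 0.645 CPM (log2 -6.60, SE 1.21, adjusted p 0.00121). Gem, a small GTPase, fell from 32.8 to 0.900 CPM (log2 -5.13, SE 0.47) and Piwil2, a PIWI protein, from 42.0 to 1.32 CPM (log2 -5.84, SE 0.82). Srpx (log2 -6.06) and Tox3, an HMG-box factor (log2 -4.79), also fell. All 24 genes of the largest rises and falls kept direction and call in each alternative setting that tested them, which was 21 settings for 23 of them and 20 for Srpx. These settings reuse the libraries from which the genes were chosen.

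The core promoters of the falling genes Mybpc1 and En1 are shown because, of the 8 largest falls with a promoter in the RefSeq table (GRCm38.p6), they are the 2 that hold a Gfi1-type motif, searched as AAATCA and AATCAC on both strands, which overlap each other by 5 bases. Each window runs from 250 bases before to 50 after the gene start, at chr10:88605103-88605402 (minus strand) for Mybpc1 and chr1:120602237-120602536 (plus strand) for En1, and capitals mark the match.
Mybpc1: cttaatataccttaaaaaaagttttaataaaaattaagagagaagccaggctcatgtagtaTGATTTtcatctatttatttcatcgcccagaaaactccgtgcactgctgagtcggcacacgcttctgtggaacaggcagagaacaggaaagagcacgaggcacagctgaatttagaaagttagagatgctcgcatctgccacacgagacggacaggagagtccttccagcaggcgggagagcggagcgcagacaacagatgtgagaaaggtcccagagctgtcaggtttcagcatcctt
En1: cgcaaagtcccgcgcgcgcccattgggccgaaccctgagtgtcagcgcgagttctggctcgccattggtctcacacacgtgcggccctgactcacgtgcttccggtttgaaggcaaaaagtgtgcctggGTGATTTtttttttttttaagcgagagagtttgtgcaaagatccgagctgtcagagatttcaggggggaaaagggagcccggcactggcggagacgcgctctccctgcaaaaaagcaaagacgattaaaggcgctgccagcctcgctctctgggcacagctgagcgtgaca
None of the 10 largest rises with a promoter held either motif in this window. Only 1 promoter per gene was searched, and Gfi1 and Calcr have 2 each. Of 32851 promoters in the table, which include those of genes not tested here, 20.2% hold at least 1 of them. Promoters were matched to 70.0% of the tested genes. Of the matched genes, 11.9% of those called higher, 16.6% of those called lower and 14.4% of those not called hold a motif. These shares were not compared by a test, and no binding data were used here.

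**Figure D2:**
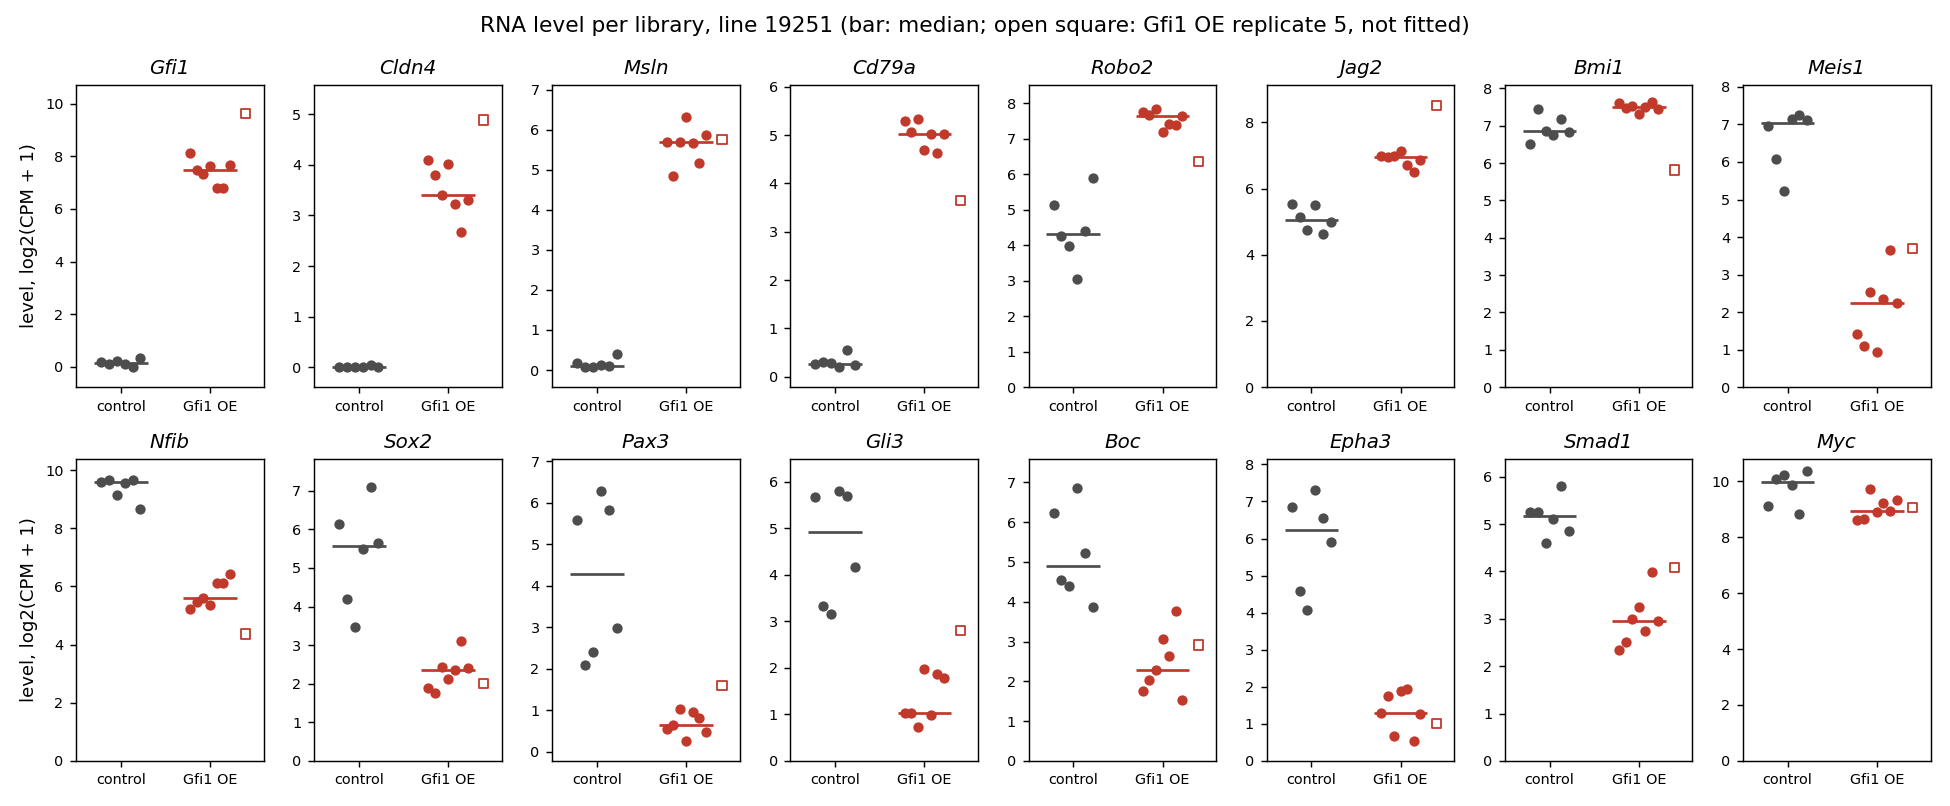
RNA level, log2(CPM + 1) on the vertical axis, in each of 6 control (grey) and 7 Gfi1 OE (red) libraries for 16 genes, with bars at the medians and open squares for Gfi1 OE replicate 5. Gfi1, Cldn4, Msln and Cd79a are near 0 in the controls and high in every Gfi1 OE library, the groups do not overlap for Meis1, Nfib, Sox2, Pax3, Gli3, Boc, Epha3 and Smad1, and they overlap for Bmi1 and Myc.

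Genes that Gfi1 is known to hold back in blood cells were lower in 10 of 18 tested members and higher in 0, with a median log2 change of -1.09. This is 55.6% lower, where 18.6% of all tested genes were lower and 15.3% higher. Meis1, a homeobox partner of Hox proteins and a marker of granule neuron progenitors, measured 36.4, 131 and 151 CPM in the controls and 0.914, 3.77 and 11.6 CPM with Gfi1 OE (log2 -4.78, SE 0.60, adjusted p 8.398e-05). Id2, an inhibitor of bHLH factors, fell from 73.0 to 23.2 CPM (log2 -1.73, SE 0.23, adjusted p 1.228e-04). For both genes every Gfi1 OE library was below every control. For Meis1, which is among the 12 largest falls, the selection required this.

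Id3, a relative of Id2, fell by 1.46 on the log2 scale (adjusted p 0.00378), with controls from 10.9 to 81.8 CPM that span the Gfi1 OE range of 13.3 to 18.4 CPM. The immediate early factor Egr1 fell as well (log2 -2.23, SE 0.54, adjusted p 0.00676), from a median of 11.6 to 4.04 CPM. Csf1, Nab2, Ets1, Egr2 and Il7r were also among the 10. Members that were not called included Cebpa (log2 -0.13, adjusted p 0.758), Cdkn1a (-0.54, adjusted p 0.337) and Sfpi1, which encodes PU.1 (-0.33, adjusted p 0.647). Without single libraries the number that fell was 7 to 10, and in limma-voom it was 6.

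The corepressors of Gfi1 changed in both directions. Of 20 tested, 4 rose and 4 fell (20% each, near the 15.3% and 18.6% of all tested genes), with a median of 0.04. Kdm1a, the demethylase, fell from a median of 133 to 91.6 CPM (log2 -0.48, SE 0.09, adjusted p 0.00128), with no overlap between the groups. Its partner Rcor3 rose (log2 0.69, SE 0.16, adjusted p 0.00439), as did Sin3a (log2 0.41), whose call was lost when Gfi1 OE replicate 5 was added (adjusted p 0.0865). Jub, a LIM protein that binds Gfi1, fell from 16.1 to 5.78 CPM (log2 -1.50, SE 0.31, adjusted p 0.00282).

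The genes behind the tumor model were also read. Myc measured 398, 497 and 853 CPM with Gfi1 OE and 461, 1002 and 1328 CPM in the controls, and the groups overlapped. Its log2 change of -0.74 (SE 0.26) passed the threshold at an adjusted p of 0.0388 and lost it in 13 of 21 settings. In the Myc and Max network 3 of 13 tested genes rose (23.1%) and 2 fell (15.4%), near the 15.3% and 18.6% of all tested genes. Mxd1, a Max partner that opposes Myc, rose from 8.08 to 13.9 CPM (log2 0.77, SE 0.12, adjusted p 5.166e-04). Of 25 tested Myc target genes 2 rose (8%) and 6 fell (24%), with a median of -0.10. Pno1, a factor of ribosome assembly, fell (log2 -0.90) and Gnl3, nucleostemin, rose (log2 0.35).

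Trp53 RNA was counted under the deleted genotype in both groups, at 36.2, 39.7 and 45.1 CPM in the controls and 27.3, 30.6 and 35.2 CPM with Gfi1 OE (log2 -0.39, SE 0.09, adjusted p 0.00438). That call was lost after an offset for the median change of each chromosome (adjusted p 0.223). Cdkn2c did not pass the test (log2 -0.75, SE 0.30, adjusted p 0.0716), nor did Cdkn2a (log2 -0.31, SE 0.25, adjusted p 0.375), whose value was 0.05 with Gfi1 OE replicate 5 added and 0.04 without control replicate 5. Among 24 tested p53 target genes 3 rose (12.5%, against 15.3% of all tested genes) and 6 fell (25%, against 18.6%). Bbc3, which promotes cell death, rose (log2 0.83, adjusted p 0.00239) and Zmat3 fell (log2 -1.09, adjusted p 0.00142).

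Among neural stem cell genes 10 of 18 tested members fell (55.6%, against 18.6% of all tested genes) and 1 rose, with a median log2 change of -1.54. Nfib, a transcription factor of the nuclear factor I family, measured 404, 763 and 813 CPM in the controls and 36.1, 47.8 and 84.2 CPM with Gfi1 OE (log2 -3.63, SE 0.24, adjusted p 9.354e-07). Sox2, a stem cell factor, measured 10.1, 46.7 and 137 CPM and 2.37, 4.15 and 7.63 CPM (log2 -3.73, SE 0.53, adjusted p 2.098e-04). Vim, the filament protein vimentin, fell from a median of 567 to 104 CPM (log2 -2.43, SE 0.30, adjusted p 8.084e-05). The libraries of the groups did not overlap for these 3 genes.

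Pax3, Msi1, Nes, Nfia, Hes1, Sox9 and Sox1 completed the list of falls. Bmi1, a Polycomb protein that sustains stem cell renewal, was the one member that rose, from a median of 114 to 182 CPM (log2 0.55, SE 0.13, adjusted p 0.0056). The marker Fabp7 measured 54.8 CPM (median) in the controls and 90.3 CPM with Gfi1 OE, with overlapping libraries (log2 0.35, adjusted p 0.631). Without single libraries 8 to 11 members fell.

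Granule neuron progenitor genes, which mark the cerebellar cells that give rise to several medulloblastomas, included 7 falls and 2 rises among 14 tested (median -1.40). The falls were 50% and the rises 14.3% of the list, against 18.6% and 15.3% of all tested genes. Zic1, a zinc finger factor of these cells, measured 59.8, 113 and 178 CPM in the controls and 24.6, 39.9 and 48.5 CPM with Gfi1 OE (log2 -1.70, SE 0.26, adjusted p 3.307e-04). Pax6 fell from a median of 39.6 to 2.61 CPM (log2 -3.96, SE 0.64, adjusted p 4.940e-04). Zic5 rose from 21.4 to 41.9 CPM (log2 0.93, SE 0.15, adjusted p 4.135e-04), and Zic2 rose too. Members of 1 family, the Zic genes, therefore moved in both directions.

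Among genes of later neurons the falls were at 14.8% to 33.3% of the tested members, against 18.6% of all tested genes. Of 27 tested pan-neuronal genes 4 fell and 0 rose (median -0.05), among them Dcx, a microtubule protein of young neurons (log2 -4.18, SE 0.87, adjusted p 0.00277). Its controls ran from 2.47 to 274 CPM and overlapped the Gfi1 OE libraries at 2.14 to 7.31 CPM. Of 26 neuronal transcription factors 5 fell and 1 rose (median -0.67), with falls of Pou3f3 (log2 -3.19) and Pou3f2 (log2 -2.91), POU factors of neural progenitors. Of 12 maturing granule neuron genes 4 fell (median -1.05), among them the ETS factor Etv1 (log2 -3.49, SE 0.67, adjusted p 0.00164).

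Markers of medulloblastoma subgroups were read next, where 33.9% of all tested genes were called. Of 13 Group 3 markers 9 were tested, 3 fell and 0 rose, with log2 changes of -2.83 for Npr3 and -0.42 for Pvt1. Otx2, a defining factor of the human subgroup, was nearly absent in both groups, at most 1.62 CPM in a control and 0.467 CPM with Gfi1 OE. Of 24 photoreceptor genes, which human Group 3 tumors express, 7 were high enough to be tested. In edgeR 0 of them were called and 0 had an unadjusted p under 0.05, and 0 were called in DESeq2 and limma-voom, and 1 with sample weights. Among 9 tested Group 4 markers 3 fell and Lmx1b, a LIM homeobox factor of the rhombic lip, rose from 0.0239 to 1.21 CPM (log2 6.2, SE 0.62, adjusted p 1.627e-05).

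**Figure D3:**
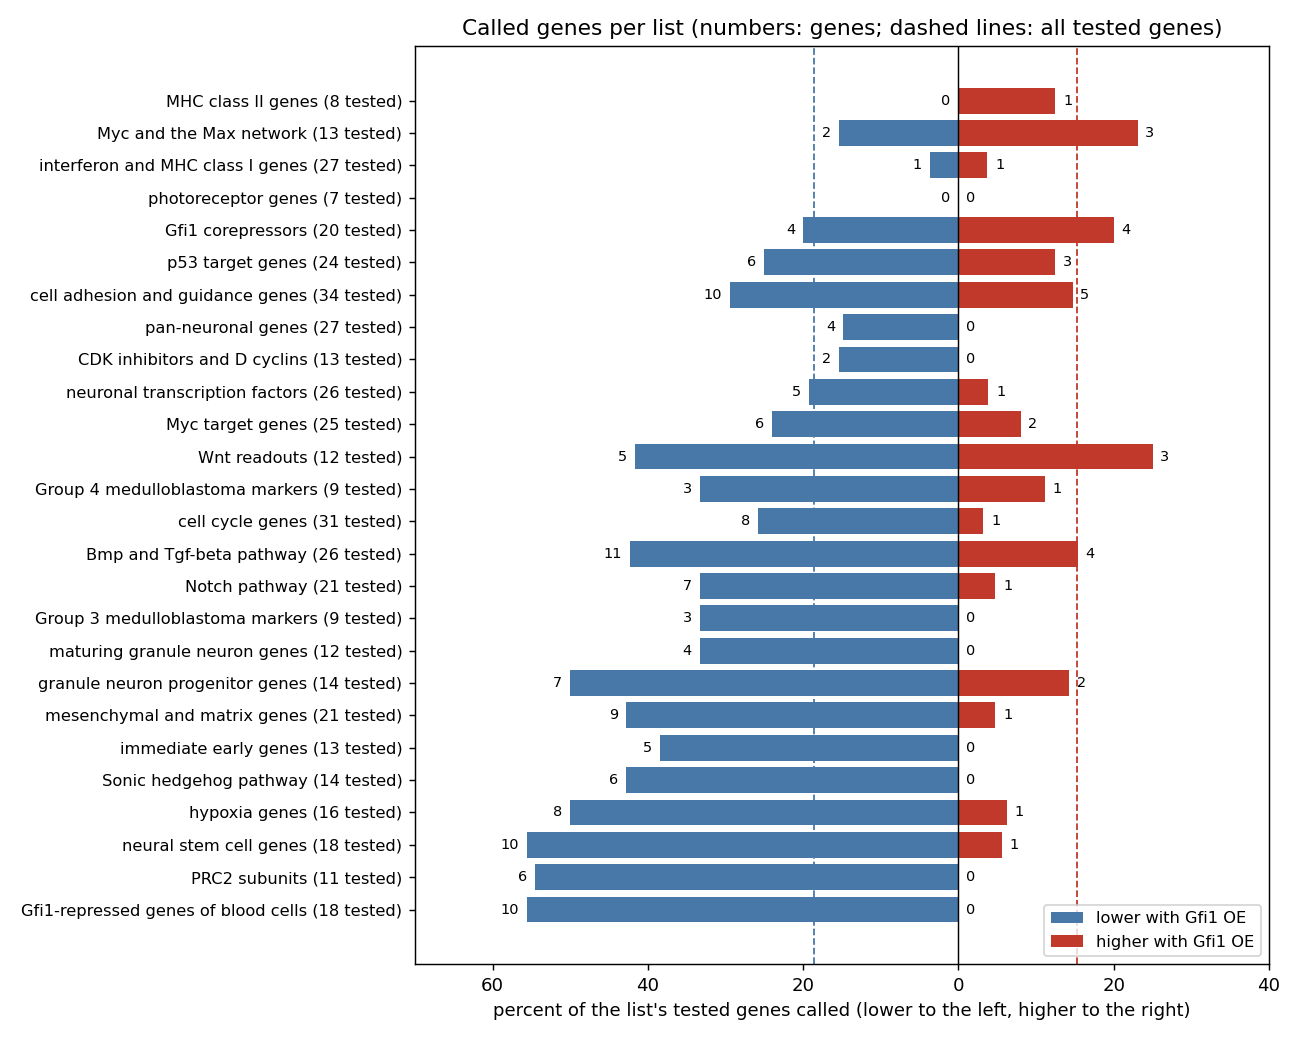
Percent of each list's tested genes called lower (blue, to the left) and higher (red, to the right) with Gfi1 OE, for the pathway and lineage lists with at least 7 tested genes; numbers are genes and dashed lines mark the 18.6% lower and 15.3% higher over all tested genes. The Gfi1-repressed genes of blood cells, PRC2 subunits and neural stem cell genes have the highest shares lower, with 10 of 18, 6 of 11 and 10 of 18 tested genes.

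Coreceptors of Sonic hedgehog signalling, the growth signal of granule neuron progenitors, fell, while its readouts Gli1, Ptch1 and Hhip did not pass the test. Of 14 tested genes of the pathway 6 fell (42.9%, against 18.6% of all tested genes) and 0 rose (median -0.46). The ligand-binding coreceptors Cdon, Boc and Gas1 fell by log2 changes of -3.57 (adjusted p 8.785e-05), -3.18 (0.00113) and -2.82 (0.00176). Cdon measured 5.49, 22.9 and 35.4 CPM in the controls and 0.545, 1.74 and 2.98 CPM with Gfi1 OE, without overlap. Boc fell from a median of 29.4 to 3.85 CPM, also without overlap, whereas the lowest Gas1 control (8.37 CPM) lay inside the Gfi1 OE range of 6.42 to 12.6 CPM.

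Gli3, the pathway's main repressor, measured 7.9, 33.4 and 54.5 CPM in the controls and 0.662, 1.04 and 2.96 CPM with Gfi1 OE (log2 -4.23, SE 0.57, adjusted p 1.495e-04). The transducer Smo and the cyclin Ccnd1 fell by 0.87 and 1.49 on the log2 scale. The readouts Gli1 (log2 2.29, SE 1.38, adjusted p 0.221), Ptch1 (0.93, adjusted p 0.215) and Hhip (-0.41, adjusted p 0.834) were not called. Gfi1 OE replicate 7 stood apart here, with 241 CPM of Gli1 against 3.02 to 16.5 in the other 6, and 477 CPM of Ptch1 against 59.4 to 76.6. Among controls replicate 3 held 42.5 CPM of Gli1, against 0.554 to 3.85 in the other 5. Without single libraries 6 to 8 genes of the list fell and 0 to 1 rose.

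In the Bmp and Tgf-beta pathway receptors and signal transducers fell while several ligands rose, with 11 falls and 4 rises among 26 tested (median -0.68). These were 42.3% and 15.4% of the list, against 18.6% and 15.3% of all tested genes. Smad1, which carries Bmp signals to the nucleus, measured 23.4, 35.2 and 54.9 CPM in the controls and 4.07, 6.8 and 14.8 CPM with Gfi1 OE (log2 -2.28, SE 0.29, adjusted p 1.051e-04). The receptors Bmpr2 (log2 -2.03, SE 0.32, adjusted p 4.522e-04) and Acvr1 (log2 -2.16, SE 0.32, adjusted p 2.606e-04) fell without overlap. Bmpr1a, Bmpr1b, Smad9, Tgfbr1, Tgfbr2, the ligand Bmp2 and the targets Id2 and Id3 fell too.

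The rises were the ligands Bmp7 (log2 3.54), Tgfb1 (1.6) and Tgfb3 (1.43), and the Bmp antagonist Chrd (1.86). Bmp7 measured 0.172, 1.02 and 3.37 CPM in the controls and 11, 15.7 and 18.7 CPM with Gfi1 OE (SE 0.65, adjusted p 0.00116), with no overlap.

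In the Notch pathway the 2 Jagged ligands moved in opposite directions. Jag2 measured 23.9, 32.4 and 45.2 CPM in the controls and 88.6, 124 and 140 CPM with Gfi1 OE (log2 1.78, SE 0.17, adjusted p 9.657e-06). Jag1 measured 22, 36.2 and 46.4 CPM in the controls and 5.48, 14.3 and 21.0 CPM with Gfi1 OE (log2 -1.39, SE 0.30, adjusted p 0.00342). The groups did not overlap for either ligand. Of 21 tested genes 7 fell (33.3%, against 18.6% of all tested genes) and Jag2 alone rose (4.76%, against 15.3%). The falls included Rbpj, the DNA-binding partner of Notch (log2 -0.66), and the target Hes1 (log2 -1.54).

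Wnt readouts split as well, with 5 falls and 3 rises among 12 tested (median -1.43). These were 41.7% and 25% of the list, against 18.6% and 15.3% of all tested genes. Notum, a secreted inhibitor of Wnt, rose from a median of 0.147 to 3.30 CPM (log2 4.31, SE 0.49, adjusted p 4.090e-05), and Nkd1, another inhibitor, from 7.35 to 20.1 CPM (log2 1.42, SE 0.27, adjusted p 0.00164). Lef1, a factor that carries the signal, fell (log2 -1.84, adjusted p 0.00891), as did the feedback gene Axin2 (log2 -1.50, adjusted p 0.0123).

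Adhesion and axon guidance genes gave 10 falls and 5 rises among 34 tested (median -0.50). These were 29.4% and 14.7% of the list, against 18.6% and 15.3% of all tested genes. Robo2, a receptor for Slit ligands, measured 7.33, 19.2 and 58.1 CPM in the controls and 144, 200 and 228 CPM with Gfi1 OE (log2 2.90, SE 0.39, adjusted p 1.324e-04). Ncam1, a neural adhesion protein, rose from a median of 58.9 to 119 CPM (log2 1.04, SE 0.17, adjusted p 4.940e-04). Both rose in all 7 libraries above all 6 controls. Unc5a, Nrcam and Slit1 also rose, while Cdh4, a cadherin, fell from 10.1 to 1.07 CPM (log2 -3.04, SE 0.55, adjusted p 0.00107).

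Matrix and mesenchymal genes were lower in 9 of 21 tested and higher in 1 (median -1.40). These were 42.9% and 4.76% of the list, against 18.6% and 15.3% of all tested genes. Cd44, a receptor for hyaluronan, measured 42.3, 84.4 and 116 CPM in the controls and 10.1, 13.9 and 27.3 CPM with Gfi1 OE (log2 -2.42, SE 0.27, adjusted p 3.516e-05). Itga5, a fibronectin receptor chain, and fibronectin itself, Fn1, fell by 2.12 and 2.04 on the log2 scale, and the cadherin Cdh2 by 1.59. The epithelial cadherin Cdh1 rose (log2 2.32, SE 0.82, adjusted p 0.0427) at levels of at most 4.78 CPM.

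Genes that respond to low oxygen were lower in 8 of 16 tested and higher in 1 (median -0.88). These were 50% and 6.25% of the list, against 18.6% and 15.3% of all tested genes. Egln3, an oxygen-sensing hydroxylase, measured 8.49, 51.3 and 87.7 CPM in the controls and 1.49, 2.85 and 4.86 CPM with Gfi1 OE (log2 -4.05, SE 0.48, adjusted p 5.229e-05). Pgk1, a glycolytic enzyme, fell from a median of 284 to 116 CPM (log2 -1.17, SE 0.25, adjusted p 0.00318). Vegfa did not pass the test (log2 -1.03, SE 0.47, adjusted p 0.107). Of 13 immediate early genes 5 fell (38.5%) and 0 rose (median -0.92), led by Fos (log2 -2.77, SE 0.48, adjusted p 7.991e-04).

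Cell cycle genes included 8 falls and 1 rise among 31 tested (median -0.25). The falls were 25.8% of the list, against 18.6% of all tested genes, and 22 members were not called. Ccna2, the S-phase cyclin, fell from a median of 234 to 155 CPM (log2 -0.54, SE 0.10, adjusted p 9.747e-04). Aurkb and Birc5, of the mitotic passenger complex, both fell by 0.53 on the log2 scale. Ccna2, Aurkb and Birc5 kept their calls in all 21 settings, with weakest log2 changes of -0.33, -0.27 and -0.27. Birc5 lies on chromosome 11, where the genes read had a median log2 change of -0.32. Mcm2, of the replication helicase, rose from 170 to 225 CPM (log2 0.53, SE 0.12, adjusted p 0.00404) without overlap. Without single libraries 7 to 13 of the list fell. Of 13 CDK inhibitors and D cyclins 2 fell (15.4%) and 0 rose.

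Subunits of PRC2, the Polycomb complex whose loss the series studies, fell in 6 of 11 tested and rose in 0 (median -0.29). The falls were 54.5% of the list, against 18.6% of all tested genes. Ezh2 itself measured 61.9, 88.1 and 102 CPM in the controls and 55.1, 61.1 and 85.5 CPM with Gfi1 OE, with overlap (log2 -0.42, SE 0.12, adjusted p 0.0184). Adding Gfi1 OE replicate 5 ended that call for Ezh2 (adjusted p 0.0710). Rbbp4, Rbbp7 and Eed fell by 0.42, 0.62 and 0.43 on the log2 scale, and Phf19 by 2.77 from a median of 4.95 CPM. Suz12 was the other fall.

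Of 27 interferon and MHC class I genes 1 rose, Irf9 (log2 0.82, adjusted p 0.0360, lost in 11 of 21 settings), and 1 fell, Irf1 (log2 -1.34, adjusted p 0.00613). Each was 3.7% of the list, where 15.3% of all tested genes rose and 18.6% fell. Ciita, the regulator of MHC class II genes, rose from a median of 0.963 to 6.24 CPM (log2 3.04, SE 0.46, adjusted p 3.071e-04). The class II genes H2-Aa (log2 1.25, adjusted p 0.265) and H2-Ab1 (log2 0.84, adjusted p 0.447) were not called.

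Markers of other cell types were read because the tumors grew in mouse brain and RNA of host cells cannot be told from tumor RNA by species. In bulk RNA, fewer cells of a type and less RNA per cell cannot be told apart. Of 26 B cell markers 9 were tested and 3 rose (33.3%, against 15.3% of all tested genes): Cd79a, Igll1 and Spib. Cd79a, the signalling chain of the B cell receptor, measured 0.145, 0.207 and 0.473 CPM in the controls and 23.6, 31.7 and 39.2 CPM with Gfi1 OE (log2 7.01, SE 0.28, adjusted p 7.895e-09). The markers Ms4a1 (at most 0.618 CPM) and Cd79b (0.946) stayed under 1 CPM in all 13 libraries, and Pax5 had at most 0.447 CPM. The summed B cell list measured 11.9 to 88.5 CPM in the controls and 52.1 to 73.8 CPM with Gfi1 OE.

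Of 6 tested skeletal muscle genes 5 rose (83.3%, against 15.3% of all tested genes) and 0 fell (median 2.42). Ttn, the giant sarcomere protein titin, measured 1.74, 5.35 and 11.1 CPM in the controls and 24.1, 51.3 and 75.5 CPM with Gfi1 OE (log2 3.11, SE 0.46, adjusted p 3.000e-04), and Ckm, muscle creatine kinase, rose from a median of 0.0914 to 6.47 CPM (log2 6.0, SE 0.63, adjusted p 2.514e-05). Tnnt3 (log2 4.29), Mylpf (1.57) and Acta1 (1.74) rose too. The fast myosin Myh4 had 12 counts with Gfi1 OE and 10 in the controls, and the summed list measured 3.42 to 15.9 CPM against 33.4 to 90.2 CPM. The part of muscle tissue in these rises was not tested.

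Lists of host brain cells differed in how many members were called, against 33.9% of all tested genes. Of 22 markers of microglia and macrophages 1 fell, Sall1, a factor also read in other cells (log2 -3.34), and the summed list measured 151 to 479 CPM in the controls and 122 to 449 CPM with Gfi1 OE. Of 13 endothelial markers Tek rose and Erg fell (sums of 77.9 to 184 and 106 to 190 CPM). Of 11 astrocyte markers 3 fell, among them the glutamate transporter Slc1a3 (log2 -1.69), and S100b rose (log2 1.68), with sums of 629 to 1561 and 377 to 672 CPM. The fall of Fgfr3, another of the 3, lost its call in 10 of 21 settings. Of 7 markers of oligodendrocyte precursors 3 fell (sums of 33.3 to 351 and 27.9 to 67.6 CPM). Of these, Olig2 and Pdgfra lost their calls in 9 and 12 of 21 settings. In limma-voom 1 of the 7 was called, with and without sample weights. Of 10 oligodendrocyte genes 0 were called in edgeR, 1 had an unadjusted p under 0.05 and 1 was called in DESeq2 and in limma-voom.

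Among 9 markers of pericytes and smooth muscle 3 rose and 2 fell. Abcc9, a channel subunit of pericytes, rose from a median of 8.77 to 39.1 CPM (log2 2.32, SE 0.38, adjusted p 5.740e-04), and Acta2 fell (log2 -3.53), a fall in which control replicate 4, at 650 CPM, stood apart from a control median of 19.4 CPM. Without that library Acta2 was not called (log2 -1.22, adjusted p 0.161). Of 9 red blood cell genes Epb4.2 and the factor Klf1 rose, while the summed list overlapped (58.0 to 301 and 46.5 to 307 CPM). Of 14 T cell markers 3 were tested, of 11 NK cell markers 1 and of 13 neutrophil markers 4, with 0 called in edgeR, DESeq2 and limma-voom and 0, 0 and 1 with an unadjusted p under 0.05. Ly6g, which defines mouse neutrophils, had no count in any library. Among the remaining lists, 1 gene rose and 2 fell of 10 cortical neuron markers, 1 and 1 of 8 inhibitory neuron markers, 1 and 0 of 9 meningeal markers and 1 and 1 of 5 choroid plexus markers. The part of host cells in the other results was not tested.

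The controls also differed from each other over whole chromosomes. Of 11673 tested genes averaging 5 CPM or more, 10270 were placed on a chromosome through RefSeq (GRCm38.p6), and the median log2 deviation of each chromosome from the control mean was taken in each library. It was -0.56 for chromosome 7 and -0.45 for chromosome 14 in control replicate 4, and -0.48 and -0.52 for chromosomes 16 and 19 in control replicate 2. The 7 Gfi1 OE libraries had similar profiles, with replicate 7 apart on some chromosomes. It lay at -0.34 on chromosome 4, against -0.12 to -0.09 in the others. Smaller gaps were on chromosome 6 (-0.01 against 0.08 to 0.11) and chromosome 1 (0.10 against -0.02 to 0.01). On chromosome 11 the 7 Gfi1 OE libraries lay at -0.30 to -0.20 against -0.18 to 0.20 in the controls, and on chromosome 3 at -0.25 to -0.19 against -0.13 to 0.26.

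Of the genes placed on chromosome 11, 41.8% were called lower and 6.74% higher, and on chromosome 3 38.8% and 8.02%, against 22.6% and 15.6% of all placed genes. With each gene offset by its chromosome's median in each library, 6080 genes were called, 5140 of them among the 5738. The cause of the chromosome medians was not tested, and DNA was not measured here.

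**Figure D4:**
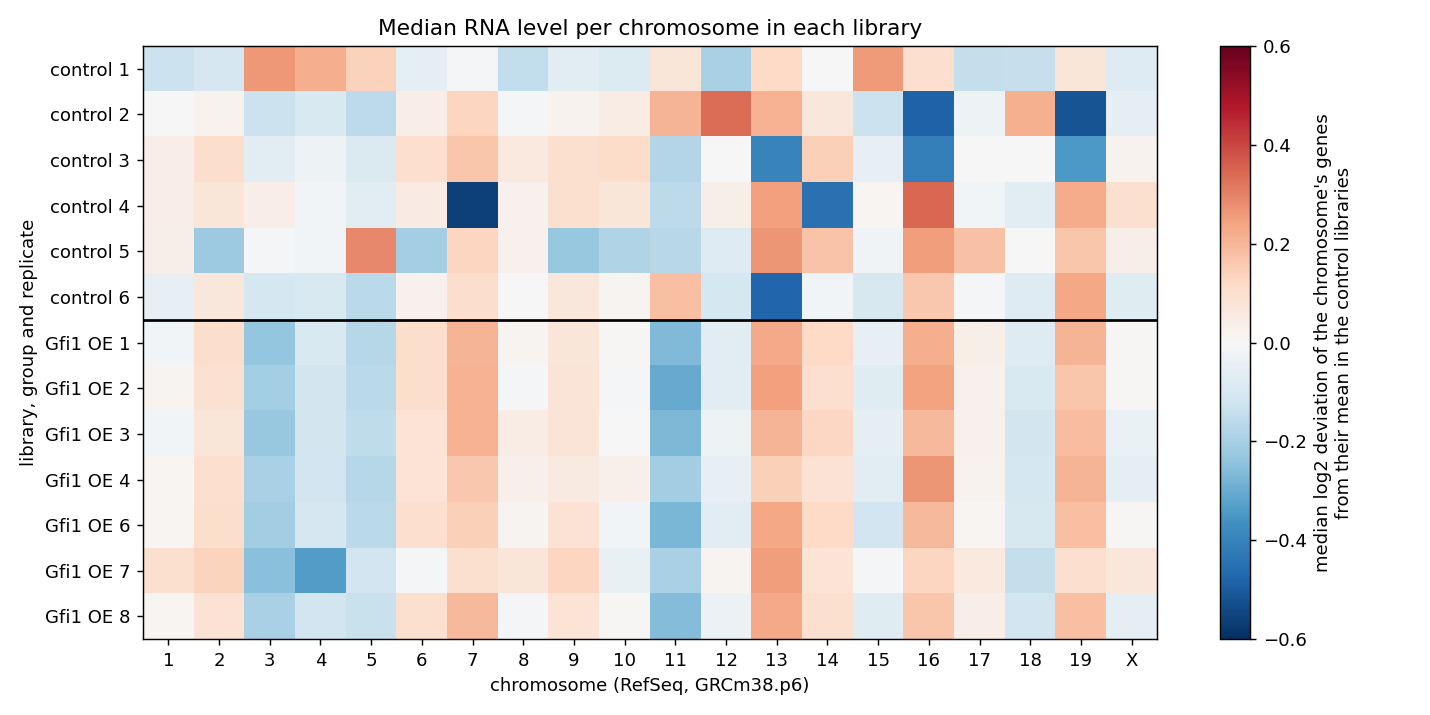
Median log2 deviation of the genes of each chromosome (columns) from their mean in the controls, for 6 control and 7 Gfi1 OE libraries (rows), with red for higher and blue for lower. The controls differ from each other, with single dark cells such as chromosome 7 in control replicate 4 at -0.56, while the Gfi1 OE rows look alike and are below the controls for chromosomes 3 and 11.

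Whether genes followed the level of Gfi1 was asked within the 7 Gfi1 OE libraries alone, where Gfi1 ranged from 109 to 276 CPM. Of 15463 genes tested for a slope, 0 passed an adjusted p of 0.05 in edgeR and 1101 (7.12%) had an unadjusted p under 0.05. Sox2 had a slope of -0.87 log2 units per log2 unit of Gfi1 (SE 0.34, adjusted p 0.680), Meis1 one of -1.88 (SE 0.65, adjusted p 0.680) and Cldn4 one of 0.94 (SE 0.27, adjusted p 0.680). None of these slopes was called. Slopes of some other genes ran against their group change or near 0, and were not called either. Vim, Id2 and Epha3, which fell with Gfi1 OE, had slopes of 0.41 (SE 0.27), 0.22 (SE 0.22) and 0.14 (SE 0.76). Krt23, which rose, had one of 0.002 (SE 0.52). With replicate 5, whose 797 CPM lies far outside that range, 3763 genes were called, so that count rests on that 1 library.

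The series title relates Gfi1 to loss of Ezh2, so the Gfi1 OE effect was set beside the effect of Ezh2 knockout in the same line, made with Cas9, each against its own controls. The fit held 3 Ezh2 KO and 2 Cas9 libraries beside the 13; Cas9 replicate 1 was left out because, in earlier results of these data, it stood apart from the other 2. Its Myc level was 9.91 CPM against 738 and 315, and its Nfib level 36.6 CPM against 749 and 605. Neither gene is therefore used below as a result of this comparison, and with that library 1430 genes were called for the difference of the effects. Of 18916 genes tested, 6344 (33.5%) were called with Gfi1 OE, 65 (0.344%) with Ezh2 KO and 1497 (7.91%) for the difference of the effects. In the difference, 719 genes (3.8%) were higher and 778 (4.11%) lower with Gfi1 OE. The group sizes are unequal, so the counts do not compare the strength of the effects.

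Gfi1 measured 1.30, 1.77 and 1.85 CPM in the Ezh2 KO libraries and 0.375 and 0.909 CPM in the Cas9 libraries (log2 1.18, SE 0.49, adjusted p 0.282). Gfi1 after the knockout was thus far below its lowest level with Gfi1 OE, 109 CPM, and the difference of the effects was 9.44 (SE 0.64, adjusted p 9.960e-07).

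Genes called with Ezh2 KO were looked up with Gfi1 OE. Of 47 genes higher with Ezh2 KO, 7 were higher with Gfi1 OE (14.9% of the 47 and 0.250% of the 2797 higher with Gfi1 OE, which were 14.8% of the genes tested), 7 were lower and 33 were not called, so the share that rose in both is the share of all tested genes. The difference was called for 34 of the 47. Of 18 lower with Ezh2 KO, 6 were lower with Gfi1 OE (33.3% of the 18 and 0.169% of 3547, or 18.8% of the genes tested).

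Hox genes, which PRC2 keeps silent outside their body regions, were read in both comparisons. Of 33 tested, 15 rose with Ezh2 KO, where 0.248% of all tested genes rose. With Gfi1 OE 0 rose and 7 fell, where 18.8% of all tested genes fell. For 12 the effect with Gfi1 OE was lower by the test of the difference, against 4.11% of all tested genes. Apart from Hoxa10, these 12 had at most 10 counts with Cas9, in the controls or with Gfi1 OE. They passed the count filter through Ezh2 KO, and their differences restate its rise. Many of the 33 were likewise near 0 outside Ezh2 KO, so 0.248% and 4.11% are no baseline for this list. Of 39 Hox genes, 24 had at most 3 counts in the Cas9 libraries, so no fold is given for them. So few counts were also found for 26 in the controls and 27 with Gfi1 OE. Where both of these groups were near 0, a gene passed the count filter through other groups, and its difference rests on the Ezh2 KO rise alone. Summed over the 39 genes, the level was 160 to 204 CPM with Ezh2 KO, 97.2 and 141 CPM with Cas9, 1.03 to 100.3 CPM in the controls and 1.54 to 10.6 CPM with Gfi1 OE. Gfi1 OE replicate 5, outside the fit, held 73.7 CPM. Some HoxA genes were lower with Ezh2 KO than with Cas9, although 0 of the 33 were called lower. Hoxa9 held 17.8 and 34.2 CPM with Cas9 and 1.05 to 4.90 CPM with Ezh2 KO (log2 -3.45, adjusted p 0.282 in the joint fit). Hoxa7 held 15.8 and 17.6 CPM with Cas9 and 1.75 to 5.62 CPM with Ezh2 KO. In the fit of the 13 libraries alone 5 of 39 Hox genes were high enough to be tested and 3 fell, Hoxa3 (log2 -4.98, SE 0.92, adjusted p 0.00127), Hoxa4 (-2.71) and Hoxa5 (-2.81). Hoxa3 measured 0.0624 to 22.4 CPM in the controls and 0.0584 to 0.506 CPM with Gfi1 OE, so the groups overlapped. The calls of Hoxa4 and Hoxa5 were lost in 5 and 6 of 21 settings.

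Lmx1b rose in both comparisons. It had 83 counts with Ezh2 KO and 0 with Cas9 (adjusted p 0.0138), and 499 counts with Gfi1 OE against 4 in the controls (adjusted p 1.627e-05 in the fit of the 13 libraries). The difference of the effects was not called (adjusted p 0.497). Cdon moved in opposite directions. It held 1.17 and 3.58 CPM with Cas9 and 27.6 to 117 CPM with Ezh2 KO, and changed by -3.57 with Gfi1 OE and 4.66 with Ezh2 KO (adjusted p 0.0377), a difference of -8.23 (SE 1.13, adjusted p 7.875e-04). For Gli3, Gas1, Sox2, Meis1 and Smad1 the effect with Gfi1 OE was lower than that with Ezh2 KO, with differences of -4.99, -5.38, -3.43, -4.50 and -2.26 and adjusted p from 0.0112 to 0.0391. Jag2 and Cd79a were higher with Gfi1 OE by 1.56 (adjusted p 0.00642) and 8.93 (adjusted p 2.808e-05) in the same test. The genes from Gli3 to Cd79a were named for their Gfi1 OE change in the same libraries. In that order they changed by 0.75, 2.555, -0.29, -0.27, -0.02, 0.22 and -1.91 with Ezh2 KO. None of them was called there (adjusted p 0.179 to 0.995). For Sox2, Meis1, Smad1 and Jag2 the difference is thus mostly the Gfi1 OE change. The count of differences fell to 356 without Cas9 replicate 3, to 810 without Cas9 replicate 2 and to 852 without Ezh2 KO replicate 1, and to 745 when Gfi1 OE replicate 5 was added.

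**Figure D5:**
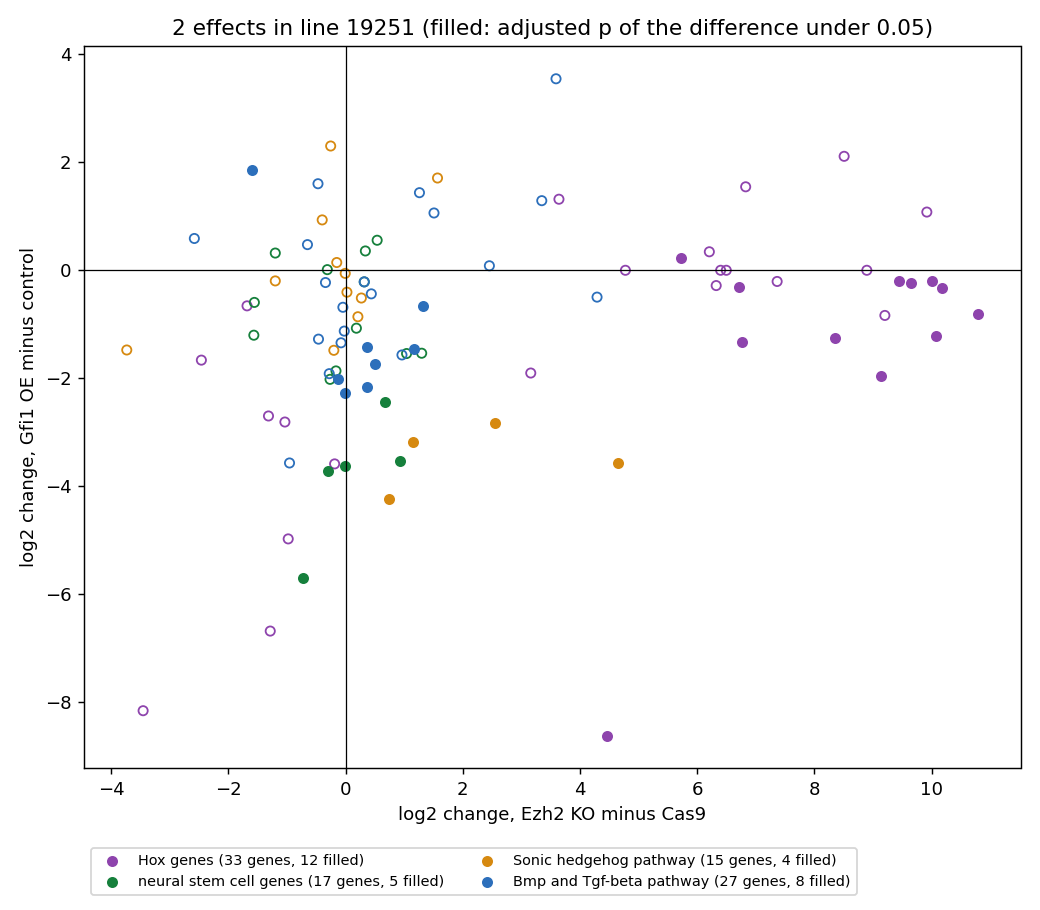
Log2 change with Gfi1 OE against control (vertical axis) and with Ezh2 KO against Cas9 (horizontal axis) in line 19251 for 4 gene lists, 1 point per gene, filled where the difference of the effects has an adjusted p under 0.05 (edgeR). The 12 filled Hox genes lie to the right, at places that depend on the fit where a group had few counts. The filled neural stem cell genes lie low on the vertical axis and near 0 on the horizontal one. Nfib is drawn among them but is not used as a result of this comparison.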

How the data were processed

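The authors deposited whole-number read counts per gene symbol for each library, made from stranded paired-end total RNA libraries, per the labels. The submitters' processing notes name CASAVA 1.7, STAR, BWA, HTSeq, limma, R 3.2.3 and the build mm9. Their roles, the annotation and the strand setting of the counter are not given in the sources used here, so reads of overlapping or antisense genes may not be told apart. Lines of reads assigned to no gene stayed out of library sizes and tests; unaligned reads are given for Gfi1 OE replicate 5.

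Gene counts were scaled by the trimmed mean of M-values and tested in edgeR 4.0.16 (filterByExpr, quasi-likelihood F-test, Benjamini-Hochberg over all tested genes, threshold 0.05) in R 4.3.3. Unless said otherwise, adjusted p-values are from that test, log2 changes are Gfi1 OE minus control with their SE, and levels are CPM. A slope on log2(CPM + 1) of Gfi1 was tested within Gfi1 OE, and the difference from the Ezh2 KO effect in a fit of 18 libraries with 4 group means. Where a group had 3 counts or fewer, an exact 95% interval of the ratio of counts replaces the fitted fold. Replicate numbers of Gfi1 OE follow accession order, since all titles carry the same number. No pair of libraries matched within sampling noise. The test was tried on simulated counts.

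Named genes are Gfi1, Gfi1b, Myc, Ezh2, Trp53, Cdkn2c and Cdkn2a, the 12 largest rises and 12 largest falls among called genes with at least 1 CPM in the higher group and no overlap, and up to 4 called members per list by smallest p. Others were named after their values were seen, and a few genes of the rule are not reported here. The members, the 43 lists and the comparisons were chosen with earlier results of these data known. Alternatives were DESeq2 1.42.0, limma-voom (limma 3.58.1) with and without sample weights, other size factors and filters, and each library left out.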

Additional observations from a re-analysis of the deposited data

Results flagged for a closer look

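Single libraries that stood far from the rest of their group were sought in 246 groups of values, of which 26 were marked; chance marks about 1 in 20 such groups. In the controls, replicate 6 held the highest Gfi1b (0.1873 CPM), Msln (0.3122 CPM), Igll1 (0.1249 CPM) and Epb4.2 (0.06243 CPM), and the highest sum of NK cell markers (6.243 CPM). The same library had the lowest En1 (4.245 CPM) and Rbbp4 (225.6 CPM). Control replicate 5 held the highest Cldn4 (0.03638 CPM), Cd79a (0.4729 CPM) and Bmpr2 (84.61 CPM). The only Krt23 read among controls was in replicate 4 (0.02897 CPM) and the only Calcr read in replicate 3 (0.0306 CPM), so these marks rest on single counts.

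In the Gfi1 OE group, replicate 7 held the highest Bmpr2 (36.19 CPM), Ccnd1 (74.95 CPM) and Ciita (17.09 CPM), the lowest Irf9 (12.22 CPM), the highest sum of B cell markers (73.77 CPM) and the lowest sum of astrocyte markers (376.5 CPM). This is the library with 241 CPM of Gli1 and a chromosome 4 median of -0.34. Replicate 4 held the highest Fn1 (125.7 CPM), Acta2 (42.46 CPM) and Crabp1 (0.01945 CPM), the lowest Cdkn2c (6.262 CPM), and the highest sums of NK cell (5.173 CPM) and pericyte and smooth muscle markers (466.0 CPM). Replicate 6 held the highest Mybpc1 (0.7551 CPM) and replicate 3 the lowest sum of red blood cell genes (46.51 CPM).

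Outside the fit, Gfi1 OE replicate 5 showed the highest Gfi1 level of any Gfi1 OE library (797 CPM), above every control, and 23.5% of its counts lay on Gm16869 and Gm10800.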

How the results depend on the processing

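The count of called genes in Gfi1 OE against control stayed within 1.5 times of 5738 under all 21 alternatives, from 4187 with Gfi1 OE replicate 5 added (4079 of them shared) to 6563 in DESeq2. Leaving out single libraries gave 4758 to 5851. An offset for the median change of each chromosome, chosen after seeing the data, gave 6080. Of 146 named genes with a value, 112 kept their call and direction in every setting, and 32 lost the call in at least 1. Cdkn2a, which was not called, was 0.0507 with Gfi1 OE replicate 5 instead of -0.31, and ran from -0.435 to 0.0363 when single libraries were left out. The cause was not tested.

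Within Gfi1 OE, 3763 genes followed the Gfi1 level with replicate 5 and 0 in the other settings run in edgeR. The difference from the Ezh2 KO effect was called for 1497 genes, for 745 with Gfi1 OE replicate 5, and for 356 to 1122 without single Cas9 or Ezh2 KO libraries. With a replicate block over Cas9 and Ezh2 KO it was called for 614, although the deviations of same-numbered libraries correlated at only -0.153 and 0.0997, so these libraries share only a number. No paired analysis was possible because control and Gfi1 OE share no replicate number that the labels tie to a pair.

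Depth limits genes near 0: Gfi1b and 34 of 39 Hox genes were too low for the test of the 13 libraries. Both arms come from 1 line, controls differ over whole chromosomes, and replicate 5 moves genes in the Gfi1 OE arm. Gene symbols without a RefSeq entry had no promoter or chromosome.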
